A study of Mus musculus with 24 samples.

Results

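The genes described here are 10 transcription factors that T cells switch on or activate when the T cell receptor signals: the zinc finger factors Egr1, Egr2 and Egr3, the orphan nuclear receptors Nr4a1, Nr4a2 and Nr4a3, the interferon regulatory factor Irf4, the leucine zipper factors Batf and Batf3, and Nfatc1. They were chosen by name from the 55401 genes of the RNA table, all 10 were among the 14749 genes with enough counts to be tested, and 170 of the 75802 chromatin peaks of the ATAC table lay within 50 kb of them. The cells were CD8 T cells of C57BL/6J mice, taken from spleens and lymph nodes with magnetic beads and cultured for 3 days on plates with anti-CD28 and IL-2; the receptor stimulus on the plates is not given in the sources used here. From day 2 to day 3 they received 20 mM sodium chloride (NaCl, which adds the same amount of sodium), 20 mM sodium pyruvate, 20 mM sodium lactate, or sodium lactate with Oxyrase, a membrane enzyme preparation that uses up dissolved oxygen. Oxyrase without lactate was not analysed here, so its effect was read against lactate alone. Transcripts were measured by RNA-seq and open chromatin by ATAC-seq, which reads where a transposase can reach the DNA, with 3 libraries per group and assay, 24 libraries in all. Libraries of the lactate with Oxyrase group are called Oxyrase 1 to 3 below.

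Signals from the T cell receptor run through calcium and calcineurin to the NFAT proteins, through RAS and the ERK kinases to the serum response factor and its partners, and through NF-kB. The EGR and NR4A genes are immediate early genes that answer these signals within the hour and fade without renewed signal, while IRF4 and the BATF proteins bind DNA together with JUN partners and shape the effector programme. EGR2, EGR3 and the NR4A proteins are also known to restrain T cells that are stimulated for long or without help.

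The starts of 7 of the 10 genes are held by the RefSeq promoter table (GRCm38.p6, 300 bases around each start); Egr1, Egr3 and Nfatc1 have no entry used here. The promoters of both BATF genes are shown because their transcripts parted, that of Egr2 as the EGR gene with an entry, and those of Nr4a1 and Nr4a3 because one family shares a motif. Capitals mark matches to the short form of the cyclic AMP response element (TGACG, or CGTCA on the other strand), to the core of the hypoxia response element (ACGTG or CACGT), to the EGR motif GCGNGGGCG on either strand and to the CArG box bound by serum response factor. They lie at chr10:67537619-67537918 (Egr2), chr15:101266596-101266895 (Nr4a1), chr4:48045055-48045354 (Nr4a3), chr12:85686470-85686769 (Batf) and chr1:191098164-191098463 (Batf3), all on the plus strand.
Egr2: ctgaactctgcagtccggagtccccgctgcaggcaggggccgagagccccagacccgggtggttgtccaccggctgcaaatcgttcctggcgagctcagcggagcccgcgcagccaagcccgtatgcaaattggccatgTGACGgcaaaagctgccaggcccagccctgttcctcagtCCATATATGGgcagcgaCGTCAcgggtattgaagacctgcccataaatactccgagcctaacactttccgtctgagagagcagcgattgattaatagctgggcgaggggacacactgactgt
Nr4a1: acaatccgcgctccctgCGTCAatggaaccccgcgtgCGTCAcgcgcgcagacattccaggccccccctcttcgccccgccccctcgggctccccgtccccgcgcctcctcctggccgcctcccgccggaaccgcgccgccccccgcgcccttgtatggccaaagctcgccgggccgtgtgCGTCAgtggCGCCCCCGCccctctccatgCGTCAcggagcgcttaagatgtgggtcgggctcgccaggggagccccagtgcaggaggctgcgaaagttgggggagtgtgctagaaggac
Nr4a3: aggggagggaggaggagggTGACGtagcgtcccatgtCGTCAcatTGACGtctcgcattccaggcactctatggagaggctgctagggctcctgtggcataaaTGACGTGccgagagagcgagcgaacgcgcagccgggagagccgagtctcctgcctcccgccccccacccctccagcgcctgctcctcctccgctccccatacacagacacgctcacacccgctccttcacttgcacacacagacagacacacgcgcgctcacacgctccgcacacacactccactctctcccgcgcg
Batf: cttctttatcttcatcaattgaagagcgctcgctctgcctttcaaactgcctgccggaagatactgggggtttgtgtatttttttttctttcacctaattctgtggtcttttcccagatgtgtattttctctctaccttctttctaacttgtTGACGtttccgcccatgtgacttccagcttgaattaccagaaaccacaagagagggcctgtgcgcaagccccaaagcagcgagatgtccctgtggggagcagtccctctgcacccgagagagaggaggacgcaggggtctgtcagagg
Batf3: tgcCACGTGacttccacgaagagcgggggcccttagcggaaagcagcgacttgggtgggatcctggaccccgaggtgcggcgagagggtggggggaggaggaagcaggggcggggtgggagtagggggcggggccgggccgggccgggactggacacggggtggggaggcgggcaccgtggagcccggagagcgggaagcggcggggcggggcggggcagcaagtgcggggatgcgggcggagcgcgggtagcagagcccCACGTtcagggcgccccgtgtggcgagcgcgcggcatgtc
The Nr4a1, Nr4a2 and Nr4a3 promoters each held 4 matches to TGACG, and the Nr4a1 and Nr4a2 promoters 1 match each to the EGR motif. Of 32851 promoters of this length, 20.81% held TGACG at least once and 5.55% the EGR motif. The Egr2 promoter shown held the CArG box, found in 1.63% of promoters, at positions -72 to -63 (the start is 0), between 2 TGACG matches; another of the 5 annotated Egr2 starts (67535499) held a palindrome of 2 hypoxia cores. The Batf3 promoter held 3 matches to the hypoxia core, of which 2 overlapped as a palindrome at -247 to -242, and the Batf promoter held 0; the core was in 19.62% of promoters. In Nr4a3 1 match to the core overlapped a TGACG match. Only the letters ACGTG and CACGT were searched as the hypoxia core, and a palindrome counted as 2 matches because both strands were read. The full element TGACGTCA (1.79% of promoters), the AP-1 motif TGANTCA (7.81%) and the NR4A motif AAAGGTCA (1.51%) had no match at any of the 7 genes, and the NFAT core GGAAA, in 61.34% of promoters, is not marked. Such matches describe letters and not binding. Each of the 5 printed windows lay wholly inside an ATAC peak.

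RNA libraries held 26036286 to 39643682 counts and ATAC libraries 25308254 to 37074367 counts. Levels below are TMM-scaled counts-per-million values (CPM), which do not correct for gene length, so they are compared between samples and not between genes. Differences are log2 fold changes from edgeR's quasi-likelihood test with Benjamini-Hochberg adjustment over all genes or peaks, and the words rose and fell are kept for an adjusted p under 0.05. Whether replicate libraries stem from different mice or cultures is not stated in the labels, so p-values measure only the spread between these samples, which may be technical. Among 26420 genes with any count, 5669 were at 0 throughout 1 replicate number, as were 448 of the 460 genes with values above 1 that were not whole. The RNA table is named as adjusted, and if differences between replicate numbers were removed from it, RNA p-values are too small. The ATAC library NaCl 3 stood apart from NaCl 1 and NaCl 2: it was the lowest of the 3 at the start peaks of 9 of the 10 genes, all but Batf, and peak results are also given without it where they rest on it. All 9 markers of CD8 T cells were expressed. Their summed level was 3129 to 3236 CPM in NaCl, 2769 to 2863 CPM with pyruvate, 3064 to 3129 CPM with lactate and 2207 to 2298 CPM with lactate and Oxyrase. Cd4 stayed at 0.304 to 0.609 CPM in all 12 libraries, and the CD4 lineage factor Zbtb7b stood at 9.21 to 11.1 CPM in NaCl and 36.9 to 47.4 CPM with lactate and Oxyrase. The remaining CD4 markers, Foxp3 and Cd40lg, went the other way. Foxp3 stood at 3.93 to 4.79 CPM in NaCl and 0.759 to 0.997 CPM with lactate and Oxyrase. Cd40lg stood at 0.964 to 1.49 CPM and 0.296 to 0.789 CPM in the same groups. The 5 B cell markers summed to 2.98 to 4.2 CPM over all groups and the 3 NK markers to at most 0.181 CPM. Of the 8 myeloid and dendritic markers, the widely expressed Cst3 held nearly all of the sum, which was 38.3 to 43.1 CPM in NaCl and 50.0 to 54.9 CPM with lactate and Oxyrase, where Lyz2 and Siglech were at 0 counts. In bulk samples such as these, fewer cells of a type and less RNA per cell cannot be told apart.

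Pyruvate raised Egr1, Egr2, Nr4a2 and Irf4 against NaCl and lowered Batf and Batf3, so 6 of the 10 genes changed, beside 15.7% of all genes tested (9.40% higher and 6.28% lower). Lactate changed 1 of the 10, Irf4, which fell, beside 7.73% of all genes (3.61% higher and 4.12% lower). Lactate with Oxyrase changed 8 of the 10 against lactate, 5 higher and 3 lower, beside 49.7% of all genes (26.1% and 23.6%). Against lactate, pyruvate changed 8 of the 10, 6 higher and 2 lower, beside 24.0% of all genes (13.0% and 10.9%). Against pyruvate, lactate with Oxyrase changed 9, 3 higher and 6 lower, beside 44.2% of all genes (22.9% and 21.2%). The median size of the difference over the 10 genes, regardless of sign, was 0.21 for pyruvate against NaCl (0.12 over all genes), 0.09 for lactate against NaCl (0.11), 0.44 for lactate with Oxyrase against lactate (0.24) and 0.35 for pyruvate against lactate (0.14), on the log2 scale. These comparisons share libraries, so their counts are not independent of each other.

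**Figure D1:**
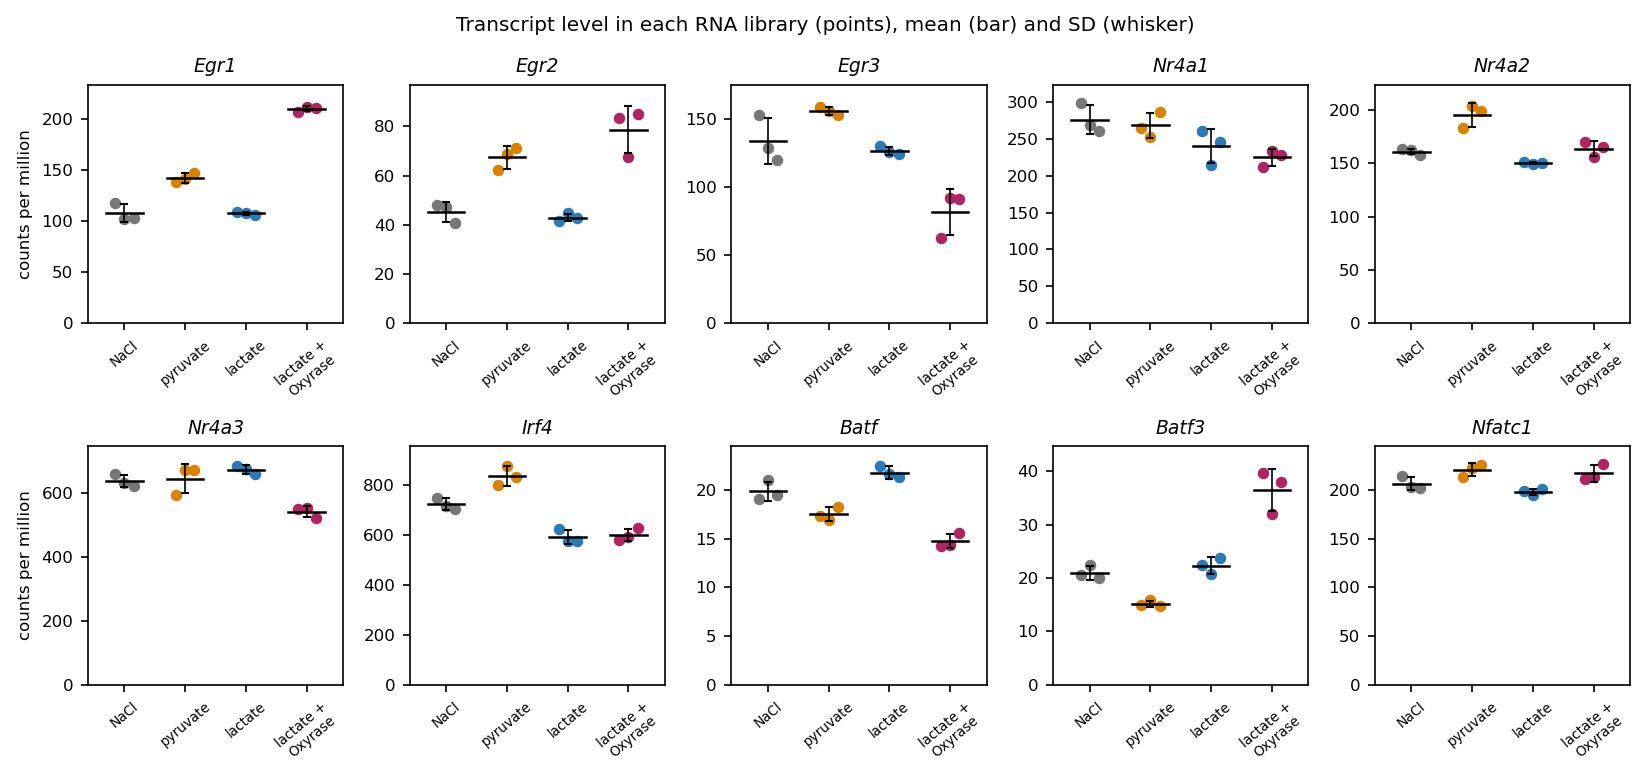
Transcript level of the 10 genes, in CPM on a linear axis from 0, for the 4 groups; each point is 1 RNA library, the bar is the mean and the whisker the SD of 3 libraries. Egr1, Egr2 and Batf3 are highest with lactate and Oxyrase, where Egr3 and Batf are lowest, and Irf4 is highest with pyruvate.

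**Figure D2:**
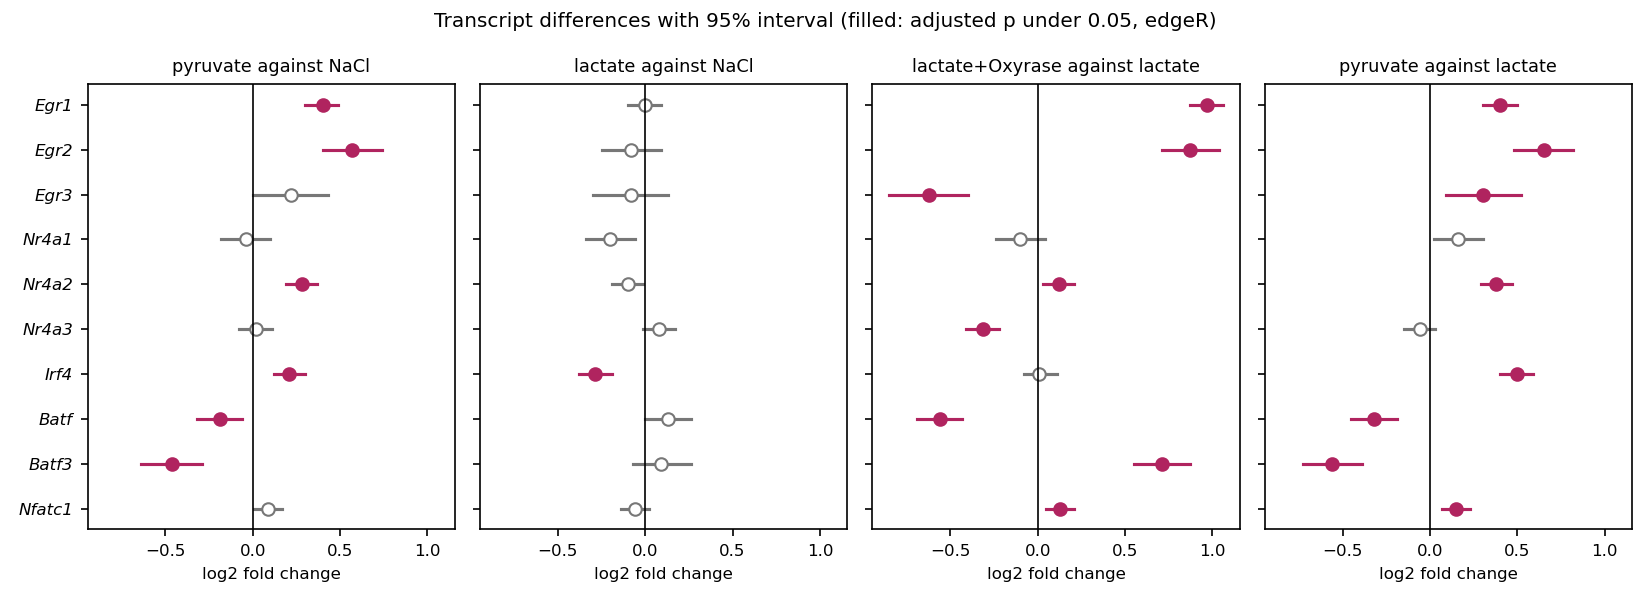
Log2 fold change of the 10 transcripts in 4 comparisons, with its 95% interval; filled points had an adjusted p under 0.05 in edgeR. The second panel holds 1 filled point (Irf4), and the third shows Egr1 at 0.97 and Egr3 at -0.62.

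Egr1 and Egr2 rose with pyruvate and rose further under Oxyrase, where Egr3 fell. Egr1 (ENSMUSG00000038418, chr18:34861207-34864956 in GRCm38.p6, as all gene positions here), the family member that also answers growth factors in most cell types, stood at 118, 102 and 103 CPM in NaCl, at 138, 141 and 147 CPM with pyruvate, at 109, 108 and 106 CPM with lactate and at 207, 212 and 211 CPM with lactate and Oxyrase. The pyruvate and Oxyrase libraries lay above all NaCl and lactate libraries, and the last 2 groups overlapped. Egr1 was thus 1.32-fold higher with pyruvate than with NaCl (95% interval 1.23 to 1.41, adjusted p = 2.31e-05 by edgeR) and 1.95-fold higher with lactate and Oxyrase than with lactate (1.82 to 2.09, adjusted p = 3.14e-11 by edgeR). Between lactate and NaCl it differed by -0.00 (95% interval -0.10 to 0.09 on the log2 scale). Its order was lactate with Oxyrase, pyruvate, NaCl, lactate, of which only NaCl and lactate were not separated.

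Egr2 (ENSMUSG00000037868, chr10:67534469-67542188), which is needed for T cell anergy and works with the corepressors NAB1 and NAB2, had the same order. Its level was 48.1, 47.1 and 40.7 CPM in NaCl, 62.3, 68.9 and 71.1 CPM with pyruvate, 41.5, 44.6 and 42.7 CPM with lactate and 83.3, 67.6 and 85.1 CPM with lactate and Oxyrase. One Oxyrase library lay within the pyruvate range, and both of these groups lay above the other two. Egr2 was 1.49-fold higher with pyruvate than with NaCl (95% interval 1.32 to 1.67, adjusted p = 0.000109 by edgeR) and 1.83-fold higher with lactate and Oxyrase than with lactate (1.63 to 2.05, adjusted p = 7.69e-08 by edgeR). The step from pyruvate to lactate with Oxyrase, 0.22 on the log2 scale (adjusted p = 0.0253 by edgeR), was lost without pyruvate 1, Oxyrase 1 or Oxyrase 3 (adjusted p = 0.104 to 0.141).

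Egr3 (ENSMUSG00000033730, chr14:70077317-70082613), a near relative of Egr2 that is induced through NFAT, ran the other way under Oxyrase. It stood at 153, 129 and 120 CPM in NaCl, 159, 156 and 153 CPM with pyruvate, 130, 126 and 124 CPM with lactate and 62.5, 91.9 and 91.4 CPM with lactate and Oxyrase. The Oxyrase libraries lay below the other 9, and Oxyrase 1 was lowest. Egr3 fell by 0.62 on the log2 scale from lactate to lactate with Oxyrase (95% interval -0.85 to -0.40, adjusted p = 9.21e-05 by edgeR). Against NaCl pyruvate gave 0.22 (adjusted p = 0.163 by edgeR), which passed at adjusted p = 0.0239 without Oxyrase 1. Egr3 was 0.30 higher with pyruvate than with lactate (adjusted p = 0.0401 by edgeR), a call lost without any 1 of the pyruvate or lactate libraries or NaCl 2 (adjusted p = 0.0522 to 0.119) and with DESeq2 (0.122).

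Because both genes are counted in the same library, a ratio of 2 members needs no scaling between libraries. The Egr1 to Egr3 ratio of counts was 0.771, 0.788 and 0.863 in NaCl, 0.869, 0.900 and 0.961 with pyruvate, 0.837, 0.854 and 0.855 with lactate and 3.31, 2.31 and 2.30 with lactate and Oxyrase. Every Oxyrase library was above every other library, and by the means of the log2 ratios the ratio was 3.06-fold that with lactate. The Egr2 to Egr3 ratio moved alike, with means of 0.339 in NaCl, 0.433 with pyruvate, 0.339 with lactate and 1.00 with lactate and Oxyrase. The exact two-sided permutation test of these ratios gave p = 0.1, the smallest that 3 against 3 allows, and 0.156 after adjustment over the 42 ratio tests.

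**Figure D3:**
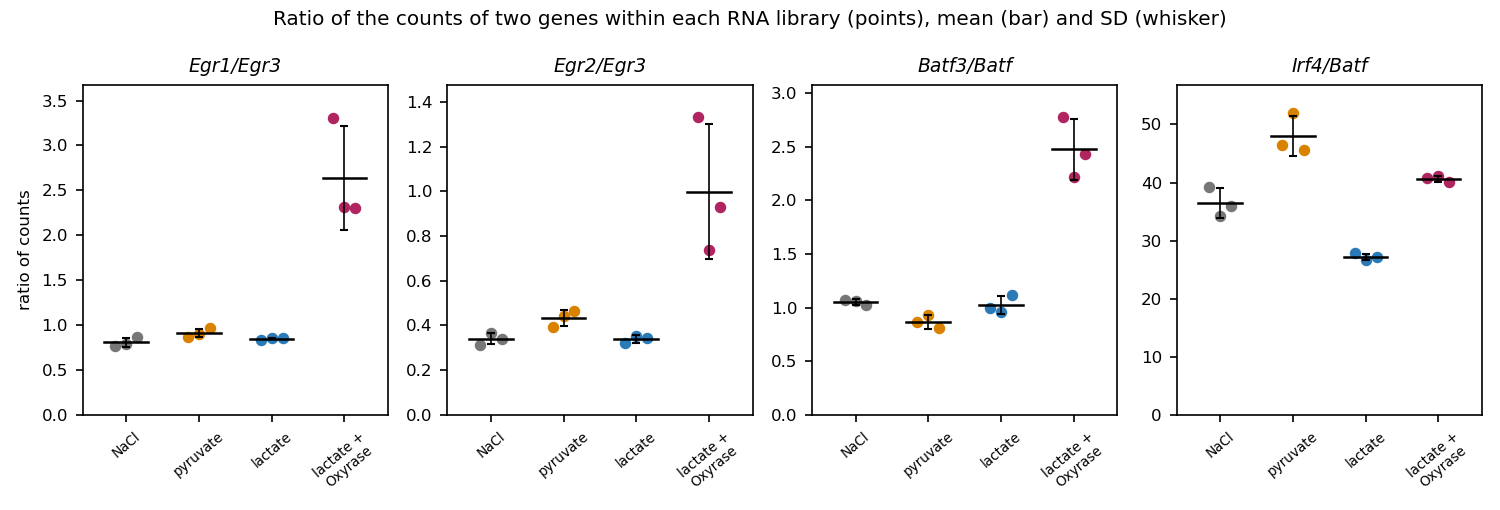
Ratio of the counts of 2 genes within each RNA library, on linear axes from 0; points are libraries, bars means and whiskers SD of 3 libraries. The Egr1/Egr3, Egr2/Egr3 and Batf3/Batf ratios are highest with lactate and Oxyrase, and Irf4/Batf runs from a mean of 27.2 with lactate to 48 with pyruvate.

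Among the NR4A receptors, Nr4a2 rose with pyruvate and Nr4a3 fell with Oxyrase. Nr4a1 (ENSMUSG00000023034, chr15:101253902-101274795), also called NUR77 and used as a reporter of receptor signal strength, stood at 298, 268 and 261 CPM in NaCl, 265, 253 and 286 CPM with pyruvate, between 215 and 261 CPM with lactate (mean 240) and 212, 234 and 228 CPM with lactate and Oxyrase. Neighbouring groups in this order overlapped, while the Oxyrase libraries lay below all NaCl and pyruvate libraries. It fell by 0.30 on the log2 scale from NaCl to lactate with Oxyrase (95% interval -0.44 to -0.16, adjusted p = 0.00117 by edgeR; 50.8% of all genes and 8 of the 10 changed in this comparison, 3 higher and 5 lower, beside 26.5% and 24.3%). Lactate alone gave -0.20 against NaCl (adjusted p = 0.0725 by edgeR), which passed with DESeq2 (0.0253) and without lactate 1 (0.0338).

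Nr4a2 (ENSMUSG00000026826, chr2:57106830-57124003), the member best known from dopamine neurons, stood at 163, 162 and 158 CPM in NaCl, 183, 204 and 199 CPM with pyruvate, 151, 149 and 150 CPM with lactate and 170, 156 and 165 CPM with lactate and Oxyrase. The pyruvate libraries lay above the other 9. Nr4a2 was 1.22-fold higher with pyruvate than with NaCl (95% interval 1.14 to 1.29, adjusted p = 0.000232 by edgeR) and 1.30-fold higher than with lactate (adjusted p = 5.92e-06 by edgeR). Its rise of 0.12 from lactate to lactate with Oxyrase (adjusted p = 0.0226 by edgeR) was lost without lactate 2, lactate 3, Oxyrase 1 or Oxyrase 3 (adjusted p = 0.0578 to 0.0999).

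Nr4a3 (ENSMUSG00000028341, chr4:48045078-48086447), which acts with NR4A1 in restraining tumour-infiltrating CD8 T cells, stood at 658, 630 and 622 CPM in NaCl, 594, 671 and 671 CPM with pyruvate, 686, 675 and 658 CPM with lactate and 550, 554 and 522 CPM with lactate and Oxyrase. The Oxyrase libraries lay below the other 9, whose groups were not separated by the test. Nr4a3 fell by 0.31 on the log2 scale from lactate to lactate with Oxyrase (95% interval -0.41 to -0.22, adjusted p = 1.66e-05 by edgeR). Pyruvate against NaCl gave 0.02 for Nr4a3 (95% interval -0.08 to 0.11) and -0.04 for Nr4a1 (-0.18 to 0.10), beside the rise of Nr4a2.

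Irf4 (ENSMUSG00000021356, chr13:30749233-30766981), whose level is graded by the strength of the receptor signal, was the 1 gene of the 10 that changed in opposite directions with pyruvate and with lactate. It stood at 750, 718 and 703 CPM in NaCl, 801, 879 and 834 CPM with pyruvate, 626, 578 and 578 CPM with lactate and 581, 592 and 627 CPM with lactate and Oxyrase. Pyruvate lay above NaCl in every library, NaCl above both lactate groups, and these 2 overlapped. Against NaCl, Irf4 was 1.16-fold higher with pyruvate (95% interval 1.09 to 1.23, adjusted p = 0.00354 by edgeR). It fell by 0.29 on the log2 scale with lactate (95% interval -0.38 to -0.19, adjusted p = 0.00106 by edgeR). Pyruvate and lactate differed by 1.41-fold (1.32 to 1.51, adjusted p = 4.81e-07 by edgeR), and adding Oxyrase to lactate gave 0.01 (95% interval -0.08 to 0.11).

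Batf and Batf3, which both pair with JUN proteins and with IRF4, moved apart under Oxyrase. Batf (ENSMUSG00000034266, chr12:85686720-85709087), needed for effector CD8 T cells, stood at 19.1, 21.0 and 19.5 CPM in NaCl, 17.3, 16.9 and 18.3 CPM with pyruvate, 22.5, 21.6 and 21.3 CPM with lactate and 14.3, 14.4 and 15.6 CPM with lactate and Oxyrase. None of the 4 groups overlapped with another. Batf fell by 0.56 on the log2 scale from lactate to lactate with Oxyrase (95% interval -0.69 to -0.43, adjusted p = 7.98e-07 by edgeR). It was 0.32 lower with pyruvate than with lactate (95% interval -0.45 to -0.19 on the log2 scale, adjusted p = 0.000944 by edgeR). The smaller fall of 0.19 from NaCl to pyruvate (adjusted p = 0.0446 by edgeR) was lost without any 1 of 7 libraries (NaCl 2 and 3, pyruvate 1 and 2, or a lactate library, adjusted p = 0.05 to 0.191) and with DESeq2 (0.0665).

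Batf3 (ENSMUSG00000026630, chr1:191098414-191108943), best known for the dendritic cells that cross-present antigen and also a memory factor in CD8 T cells, stood at 20.5, 22.4 and 19.9 CPM in NaCl, 14.9, 15.8 and 14.8 CPM with pyruvate, 22.4, 20.7 and 23.8 CPM with lactate and 39.6, 32.0 and 37.9 CPM with lactate and Oxyrase. Pyruvate libraries lay below, and Oxyrase libraries above, all others. Batf3 was 1.63-fold higher with lactate and Oxyrase than with lactate (95% interval 1.46 to 1.82, adjusted p = 5.02e-07 by edgeR). From NaCl to pyruvate it fell by 0.46 on the log2 scale (95% interval -0.64 to -0.29, adjusted p = 0.000876 by edgeR). The dendritic markers Flt3 and Siglech stayed at or under 0.185 CPM in every library. The widely expressed Cst3, of the same marker list, stood at 33.4 to 36.3 CPM with lactate and 49.5 to 54.3 CPM with lactate and Oxyrase. Which cells held the Batf3 transcript was not tested. The Batf3 to Batf ratio of counts averaged 1.05 in NaCl, 0.867 with pyruvate, 1.02 with lactate and 2.47 with lactate and Oxyrase, and the Irf4 to Batf ratio 36.4, 48, 27.2 and 40.6 in the same order of groups. In the Irf4 to Batf ratio no 2 groups overlapped.

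Nfatc1 (ENSMUSG00000033016, chr18:80606205-80713071), the NFAT gene that is itself induced by receptor signals, changed little. It stood at 214, 203 and 202 CPM in NaCl, 213, 223 and 226 CPM with pyruvate, 199, 195 and 201 CPM with lactate and 211, 213 and 227 CPM with lactate and Oxyrase. The lactate libraries were the lowest. Nfatc1 was 0.13 higher with lactate and Oxyrase than with lactate on the log2 scale (95% interval 0.05 to 0.21, adjusted p = 0.00892 by edgeR), which was lost without Oxyrase 3 (adjusted p = 0.0632). It was 0.15 higher with pyruvate than with lactate (adjusted p = 0.00761 by edgeR).

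The counts of the gene lists that follow stand beside 9.40% of all genes higher and 6.28% lower with pyruvate against NaCl, 3.61% and 4.12% with lactate against NaCl, and 26.1% and 23.6% with lactate and Oxyrase against lactate. Upstream of these genes, the list of receptor and proximal signalling genes held 4 that rose and 5 that fell of 21 tested with pyruvate against NaCl, and 4 and 11 with lactate and Oxyrase against lactate. The costimulatory receptor Cd28 rose 1.18-fold and the phosphatase Ptpn22 1.2-fold with pyruvate (adjusted p = 0.000536 and 0.000505 by edgeR). Under Oxyrase the adaptor Grap2 fell by 0.83 and Ubash3a, which dampens receptor signals, by 0.90 on the log2 scale. The median of this list with Oxyrase was -0.10, beside a median of 0.00 over all genes, and the CD8 lineage markers, some of which belong to both lists, fell in the same comparison (7 of 9); their part in the changes of the 10 factors was not tested. Of 23 calcium and NFAT genes tested, 2 rose and 1 fell with pyruvate, 0 and 1 with lactate, and 9 and 6 with Oxyrase. For the calcium and NFAT list the shares with pyruvate, and those that fell with Oxyrase, were near those of all genes. The calcineurin subunit Ppp3cb fell by 0.28 with pyruvate and the calcium channel Itpr3 by 0.60 with Oxyrase on the log2 scale.

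In the RAS and MAPK list 8 of 30 genes rose and 2 fell with pyruvate, 3 and 3 with lactate, and 14 and 8 with Oxyrase, the last near the 23.6% of all genes that fell. ERK feedback genes were among them. Spry2 and Spry1, which dampen RAS signalling, rose 1.5-fold and 1.33-fold with pyruvate (adjusted p = 8.24e-06 and 7.04e-05 by edgeR). The mean of Dusp6, the ERK phosphatase, was 35.7 CPM in NaCl and fell to 28.2 CPM under lactate (log2 fold change -0.34, adjusted p = 0.00194 by edgeR), and stood at 46.8 CPM with pyruvate and 45.4 CPM with Oxyrase. Of 12 AP-1 genes tested, 5 rose and 0 fell with pyruvate, 0 and 2 with lactate, and 7 and 3 with Oxyrase. Fosl1, an AP-1 subunit, rose 1.48-fold with pyruvate and 2.04-fold with Oxyrase, and Jun fell by 0.26 on the log2 scale with lactate. Maf also passed with Oxyrase but at a low level (0.374 CPM, where 3 counts are 0.0759 to 0.116 CPM). Of 17 NF-kB genes, 5 rose and 4 fell with pyruvate, 0 and 5 with lactate, and 11 and 4 with Oxyrase, where the share that fell was again near that of all genes. Nfkb2 rose 2.03-fold with Oxyrase, the inhibitor Nfkbid fell by 1.28 on the log2 scale, and Relb fell by 0.34 with lactate.

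Relatives and corepressors of the members gave 3 higher and 3 lower of 14 with pyruvate, 1 and 3 with lactate, and 6 and 3 with Oxyrase. Irf1 fell by 0.36 with lactate, Irf7 fell by 1.34 with pyruvate and Irf5 rose 2.09-fold with Oxyrase. Among 30 tested targets and receptor-induced genes, 14 rose and 3 fell with pyruvate, 0 and 4 with lactate, 18 and 8 with Oxyrase, and 20 and 3 for pyruvate against lactate, where 13.0% of all genes rose and 10.9% fell. The list's median was 0.18, -0.02, 0.24 and 0.22 in these comparisons, beside 0.00 over all genes. Ccl1, a chemokine, fell from 7.71 to 4.20 CPM with lactate and stood at 20.0 CPM with pyruvate and 38.3 CPM with Oxyrase. Spp1, osteopontin, rose from 25.6 to 97.3 CPM with pyruvate and stood at 172 CPM with Oxyrase. Il2, the T cell growth factor, fell from 9.52 to 6.00 CPM with lactate (adjusted p = 0.0118 by edgeR). Of 20 immediate early genes that answer many stimuli, 7 rose and 1 fell with pyruvate, 0 and 4 with lactate, and 13 and 3 with Oxyrase, where 49.7% of all genes changed. Arc, which encodes a capsid-forming protein and is a known EGR target, had 11.5 CPM in NaCl, 21.1 CPM with pyruvate, 7.44 CPM with lactate and 25.2 CPM with Oxyrase. These lists were chosen with earlier results of these libraries known and are not independent evidence of a direction.

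Over the 12 RNA libraries, which share their groups, the genes whose log2 CPM followed each member most closely were found among 8636 genes whose mean log2 CPM was 3 or more. For Egr1 they were Ncoa4, Zeb2 and Mdfic (Pearson r = 0.991 to 0.993), for Egr2 Nedd9, Heatr3 and Map2k3 (0.98 to 0.982), and for Egr3 Sbk1, Tox and D1Ertd622e (0.971 to 0.974). Nr4a1 was followed by the immediate early gene Fos (0.941), Lsm11 and Polr2d, Nr4a2 by Frmd6, Polr2a and Crybg3, and Nr4a3 by Ehd3, Tcf20 and Cd164. Irf4 was followed by Map3k20 (0.983), Abcb1b and Ticam2, Batf by Gart (0.979), Abcf2 and Gtf3c2, Batf3 by Ptpn11 (0.983), Zfand3 and Slc7a5, and Nfatc1 by Vps41 (0.931), Fnta and Slc30a5. Between members, r was 0.915 for Egr1 and Egr2, -0.647 for Egr1 and Egr3, -0.940 for Egr1 and Batf and -0.922 for Egr3 and Batf3. These coefficients describe 4 group means more than 12 separate samples.

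Chromatin near the 10 genes changed in the direction of the transcript at some genes and in the opposite direction at others. A link between them was not tested. With pyruvate against NaCl 0 of the 170 peaks changed, as did 0 of all 75802 peaks (percent called 0). An unadjusted p under 0.05 in edgeR was held by 10 of the 170 and by 4060 of all peaks. Both shares are near the 0.05 that this threshold gives where nothing differs. DESeq2 also called 0 near these genes. With lactate against NaCl 17 of 170 peaks changed, 3 higher and 14 lower, which is 10.0% beside 6.41% of all peaks (1.13% higher and 5.28% lower). That count was 44 without NaCl 3, and 3, 1, 4 and 2 without NaCl 1, NaCl 2, lactate 2 and lactate 3. With factors from peaks away from gene ends it was 1 higher and 19 lower, and with DESeq2 1 and 17. The share of all peaks under these and the later alternative settings is not given here. Such counts describe how far the calls depend on the setting, and not these genes alone. With lactate and Oxyrase against lactate 65 changed, 26 higher and 39 lower, 38.2% beside 28.4% of all peaks (15.6% and 12.8%). Pyruvate against lactate changed 29, 20 higher and 9 lower, 17.1% beside 11.6% (6.84% and 4.78%); this was 10, 12, 10 and 8 without pyruvate 1, pyruvate 2, lactate 2 and lactate 3, and 22 higher and 5 lower with upper quartile factors or factors from peaks away from gene ends. Against NaCl, lactate with Oxyrase changed 80, 29 higher and 51 lower, 47.1% beside 40.7% (21.5% and 19.2%), and 19 higher and 65 lower with factors from peaks away from gene ends. Against pyruvate it changed 73, 29 higher and 44 lower, beside 39.5% of all peaks (21.6% and 17.9%), and 18 higher and 58 lower with those factors.

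At the gene starts, the peak with the most counts within 1 kb of each start was taken, and for Egr1, Egr3 and Nfatc1, whose strand was not used, within 1 kb of either end. From NaCl to lactate with Oxyrase 9 of these 10 peaks fell and 0 rose, with a median of -0.34 on the log2 scale. Over all 19609 peaks within 1 kb of a gene end, 38.7% fell and 10.7% rose in that comparison, with a median of -0.17. The 10 peaks were picked for their counts, while the 19609 include weaker peaks and lie at either gene end. The sets are therefore not matched in signal or position. From lactate to lactate with Oxyrase 5 fell (Nr4a1, Irf4, Batf, Batf3 and Nfatc1) and 0 rose, beside 19.7% and 6.76% of all gene-end peaks. Of these, the Batf call was lost without lactate 2, lactate 3 or Oxyrase 2 (adjusted p = 0.0522 to 0.121 by edgeR) and the Batf3 call without lactate 1, lactate 3, Oxyrase 1 or Oxyrase 3 (0.0609 to 0.149). With lactate against NaCl 2 fell (Egr1 and Nr4a1), beside 14% of gene-end peaks; without NaCl 3 those of Egr2, Egr3, Nr4a3, Irf4 and Batf3 also passed (adjusted p = 0.0043 to 0.0484 by edgeR), and the Nr4a1 call was lost without NaCl 1, NaCl 2, lactate 2 or lactate 3 (0.0628 to 0.177).

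**Figure D4:**
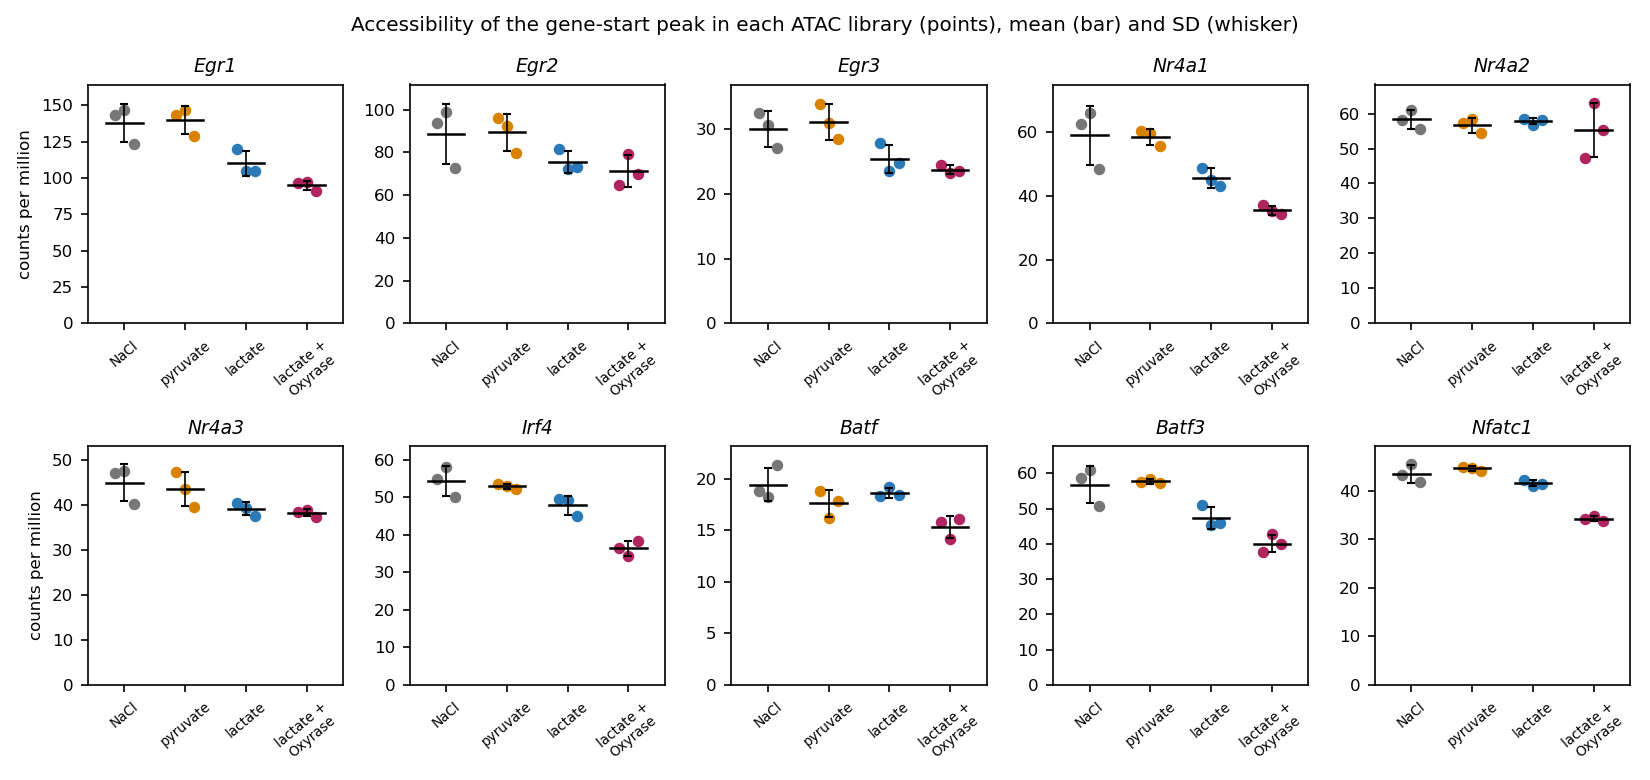
Accessibility of the gene-start peak of each of the 10 genes, in CPM on a linear axis from 0, for the 4 groups; points are ATAC libraries, bars means and whiskers SD of 3 libraries. In 9 panels the Oxyrase group has the lowest mean with a fall from NaCl that passed the test; for Nr4a2 the groups overlap.

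From NaCl to lactate with Oxyrase, the start peak of Egr1 fell while its transcript rose 1.95-fold. From lactate to lactate with Oxyrase, the peak gave -0.21 on the log2 scale, which did not pass (adjusted p = 0.0801 by edgeR). At chr18:34859829-34861710 the level was 143, 147 and 123 CPM in NaCl, 143, 147 and 129 CPM with pyruvate, 120, 105 and 105 CPM with lactate and 96.4, 97.1 and 91.3 CPM with lactate and Oxyrase. The Oxyrase libraries were below all others, and pyruvate did not part from NaCl. The peak fell by 0.54 on the log2 scale from NaCl to lactate with Oxyrase (95% interval -0.73 to -0.35, adjusted p = 8.28e-06 by edgeR). Its fall of 0.32 with lactate alone (adjusted p = 0.0261 by edgeR) was lost without NaCl 1, NaCl 2, lactate 2 or lactate 3 (adjusted p = 0.144 to 0.204). The start peak of Batf3, chr1:191097069-191098673, holds the promoter printed above. Of its 3 matches to the hypoxia core, 2 are 1 palindrome read on both strands. Whether these letters bear on the transcript was not tested. The start peak was read in the same way as the others. Its mean levels had the same order of groups. It stood at 58.8, 60.8 and 50.8 CPM in NaCl and 57.4, 58.4 and 57.3 CPM with pyruvate. With lactate it stood at 51.0, 45.2 and 46.0 CPM, and with lactate and Oxyrase at 37.7, 42.7 and 39.8 CPM. It fell by 0.50 from NaCl to lactate with Oxyrase (adjusted p = 1.25e-05 by edgeR), where the transcript was 1.74-fold higher. The start peak of Egr2 fell by 0.31 in that comparison (adjusted p = 0.0125 by edgeR), a call lost without NaCl 1, NaCl 2 or Oxyrase 1 (adjusted p = 0.0738 to 0.126).

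Both transcript and start peak fell at Nr4a1, Irf4, Batf, Egr3 and Nr4a3 from NaCl to lactate with Oxyrase. As 9 of the 10 start peaks fell and 0 rose, which genes matched was set mostly by the direction of the transcript. At the internal start of Nr4a1 (chr15:101266412-101267230), the promoter printed above, the level was 62.6, 66.0 and 48.3 CPM in NaCl, 60.4, 59.6 and 55.6 CPM with pyruvate, 48.9, 44.9 and 43.0 CPM with lactate and 37.1, 35.1 and 34.4 CPM with lactate and Oxyrase. The groups stepped down from NaCl to lactate to Oxyrase, and NaCl 3 lay inside the lactate range. The peak fell by 0.73 from NaCl to lactate with Oxyrase on the log2 scale (95% interval -0.92 to -0.54, adjusted p = 4.22e-08 by edgeR). A peak at the lower annotated end of the gene (chr15:101253702-101254336) fell by 0.91 (adjusted p = 1.61e-10 by edgeR), from 40.4, 45.8 and 37.1 CPM to 22.3, 22.5 and 20.7 CPM. The start peak of Irf4 fell by 0.58 (adjusted p = 7.82e-07 by edgeR), that of Batf by 0.34, that of Egr3 by 0.34 and that of Nr4a3 by 0.23. The Nr4a3 call (adjusted p = 0.0335 by edgeR) was lost when only the 2 groups entered the fit (0.0720) and without NaCl 1, NaCl 2 or any Oxyrase library (adjusted p = 0.0513 to 0.143). The Nr4a2 start peak, which also lies within 1 kb of another gene's end, stood at means of 55.2 to 58.3 CPM in the 4 groups.

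Over all peaks within 50 kb, the start peaks included, peaks of either direction lay near most members. The counts that follow stand beside 15.6% of all 75802 peaks higher and 12.8% lower with lactate and Oxyrase against lactate. Several were near these shares, such as those that rose near Egr3 and Nfatc1. Of the 15 peaks near Nr4a1, 8 fell and 1 rose from lactate to lactate with Oxyrase, and of the 32 near Nfatc1, 10 fell and 5 rose. Of the 18 near Egr2, 5 rose and 1 fell, and of the 12 near Egr1, 0 rose and 3 fell. Near Irf4 5 of 26 rose and 5 fell, near Nr4a3 3 of 16 rose and 4 fell, near Batf3 3 of 15 rose and 4 fell, near Batf 1 of 15 rose and 3 fell, near Egr3 2 of 12 rose and 1 fell, and near Nr4a2 1 of 9 rose. Peaks within 50 kb can belong to other genes, and 13 of the 170 lay within 1 kb of another gene's end.

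**Figure D5:**
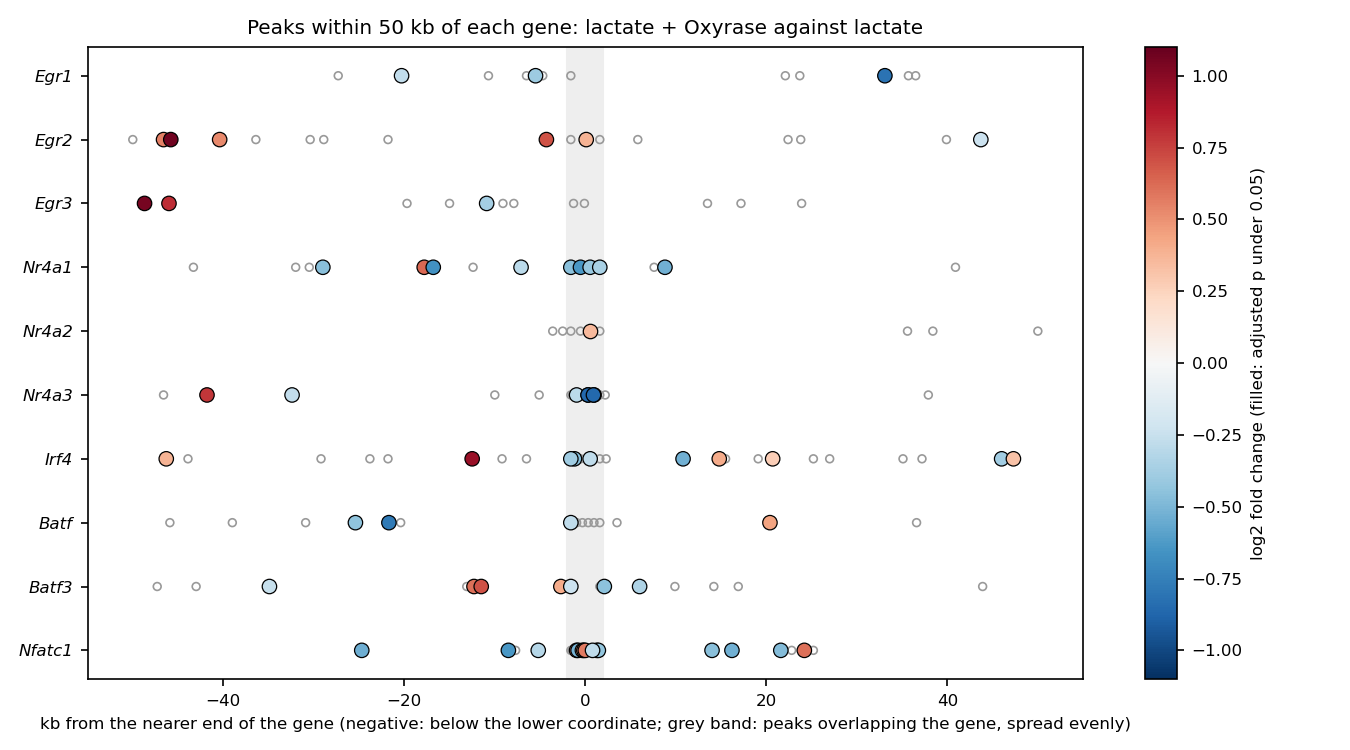
Peaks within 50 kb of the 10 genes, lactate with Oxyrase against lactate; the horizontal axis is the distance in kb from the nearer gene end, each point is 1 peak, and filled points, coloured by log2 fold change, had an adjusted p under 0.05. Filled points of both colours lie near 8 of the 10 genes; those near Egr1 are all lower and the 1 near Nr4a2 is higher.

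The peak with the smallest p near Batf lay 21.7 kb below the gene (chr12:85664369-85665019). It stood at 14, 15.5 and 12 CPM in NaCl, 11.8, 14.4 and 11.8 CPM with pyruvate, 11.1, 8.31 and 9 CPM with lactate and 5.84, 4.30 and 6.46 CPM with lactate and Oxyrase. The 3 groups NaCl, lactate and Oxyrase did not overlap. It fell by 0.54 with lactate (adjusted p = 0.00561 by edgeR), a call lost without NaCl 2, lactate 2 or lactate 3 (adjusted p = 0.0635 to 0.0986), and by a further 0.78 with Oxyrase (adjusted p = 1.97e-05 by edgeR). The Batf transcript fell with Oxyrase too, while lactate alone gave 0.13 against NaCl (adjusted p = 0.195 by edgeR). Near Egr2 a peak of 177 bp 45.8 kb below the gene (chr10:67488537-67488713) rose under Oxyrase, as the transcript did: 4.21, 3.73 and 3.58 CPM in NaCl, 4.06, 4.92 and 4.72 CPM with pyruvate, 3.29, 3.98 and 4.10 CPM with lactate and 7.79, 9.07 and 6.89 CPM with lactate and Oxyrase. The rise from lactate was 2.09-fold (adjusted p = 4.17e-07 by edgeR), and the Oxyrase libraries lay above all others.

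Near Irf4 a peak 14.8 kb above the gene (chr13:30781788-30782302) was low with lactate, as the transcript was. It stood at 11.7, 11.2 and 8.62 CPM in NaCl, 12.5, 11.1 and 10.3 CPM with pyruvate, 7.50, 6.36 and 7.84 CPM with lactate and 10.8, 9.35 and 8.75 CPM with lactate and Oxyrase. The lactate libraries were the lowest. The peak fell by 0.53 with lactate against NaCl (adjusted p = 0.00623 by edgeR; 0.066 to 0.0908 without NaCl 1, NaCl 2 or lactate 2) and was 1.56-fold higher with pyruvate than with lactate (adjusted p = 0.000669 by edgeR). It rose 1.33-fold from lactate to lactate with Oxyrase (adjusted p = 0.0115 by edgeR), where the Irf4 transcript differed by 0.01. Near Batf3 a peak 12.3 kb below the gene rose 1.52-fold from lactate to lactate with Oxyrase (7.14 to 10.8 CPM, adjusted p = 0.000153 by edgeR). Inside Nr4a3 a peak of 401 bp rose 1.51-fold in the same comparison (11.1 to 16.7 CPM, adjusted p = 2.04e-05 by edgeR), and a peak inside Nfatc1 rose 1.45-fold (9.35 to 13.5 CPM, adjusted p = 0.000842 by edgeR). ATAC and RNA libraries are listed as separate samples, and the labels do not say whether they share cultures. Peaks and transcripts were therefore set side by side by group and not by library.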

How the data were processed

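RNA-seq and ATAC-seq libraries of 4 groups, 3 per group and assay, were analysed. The RNA values are expected counts per gene, deposited by the authors as an adjusted matrix (RSEM 1.2.12, Bowtie2 2.2.0 and edgeR 3.20.9 are named in the submitters' processing notes); how they were adjusted is not given in the sources used here. The ATAC values are raw counts per peak deposited by the authors on mm10, with BWA, Picard, MACS2 and bedtools named in the submitters' processing notes. The RNA libraries were made with a kit that does not mark strand.

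Expected counts were rounded. For each assay, edgeR 4.0.16 (filterByExpr, TMM, quasi-likelihood fit) was run on the 12 libraries together, leaving 8 residual degrees of freedom, with a biological coefficient of variation of 5.05% (RNA) and 9.7% (ATAC). The 6 comparisons between groups were read with Benjamini-Hochberg adjustment and a threshold of 0.05. The pipeline was tested on simulated data. Of 55401 gene identifiers 55141 had a symbol. GRCm38.p6 gene positions placed the peaks, taking deposited peak starts as 0-based.

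The members, gene lists and tests were chosen with earlier results of these data known. Named genes were the 10 members, up to 2 genes of the largest change among those called in each list and comparison, and the 3 genes most like each member; named peaks were those within 1 kb of a gene start and the peak of smallest p per member and comparison. Alternatives were RLE and upper quartile factors, no filter, DESeq2 1.42.0, only the 2 groups, a replicate block, leaving out each library, other windows, and ATAC factors from peaks over 1 kb from gene ends. Ratios were tested with scipy 1.17.1 and plotted with matplotlib 3.10.9, under Python 3.11.15 (pandas 2.3.3, numpy 2.4.6); models ran in R 4.3.3.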

Additional observations from a re-analysis of the deposited data

How the results depend on the processing

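No value of a member or named peak changed direction where it passed the test, in 1080 alternative values of the 60 transcript differences and 2601 of the named peaks; DESeq2 gave no adjusted p for 2 further peak values. Leaving out 1 library lost 22 and gained 4 transcript calls, and lost 76 and gained 16 peak calls; the other alternatives lost 7 and gained 6 transcript calls, and lost 4 and gained 19 peak calls. Lactate against NaCl called 2 members without the filter on low counts and with DESeq2, in place of 1. Of the 86 peaks within 10 kb, 10 were called for lactate against NaCl, beside 6.41% of all peaks. For lactate with Oxyrase against lactate it was 33 (28.4% of all peaks), and for pyruvate against lactate 13 (11.6%). Lactate with Oxyrase gave 43 against NaCl (40.7%) and 38 against pyruvate (39.5%). These counts are lower than within 50 kb because fewer peaks were counted.

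Leaving out 1 library gave 5 to 7 members for pyruvate against NaCl, 1 to 2 for lactate against NaCl, 6 to 8 for lactate with Oxyrase against lactate, 7 to 8 for pyruvate against lactate, 8 to 8 for lactate with Oxyrase against NaCl and 8 to 9 against pyruvate. For peaks the ranges were 0 to 0, 1 to 44, 50 to 74, 8 to 34, 64 to 81 and 58 to 77 in the same order. The cause of these ranges was not tested. The shares of all genes and peaks in these fits, and with the replicate block below, are not given here. With 3 libraries per group, Dixon's test for a sample apart from its group was not applied.

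Libraries of different groups share replicate numbers. Deviations of same-numbered libraries from their group means correlated at -0.21 to -0.08 in RNA, where 0 of 18 pairs passed 0.1. In ATAC they correlated at -0.15 to 0.17, and 6 of 18 pairs passed. Closest to their own number were 0 of 12 RNA libraries and 8 of 12 ATAC libraries. The median was -0.14 in RNA and 0.06 in ATAC, beside 0.07 and -0.03 for pairs of different numbers. The fit without a block was kept because not every pair passed 0.1, which does not exclude pairing. If the RNA table was adjusted for replicate number, its correlations say nothing about pairing, and in ATAC the numbers may pair samples in part. With the replicate number as a block, 5, 1, 8, 7, 8 and 9 members and 0, 21, 74, 34, 84 and 74 peaks were called, in the order above; the members lost were Batf for pyruvate against NaCl (adjusted p = 0.0843 by edgeR) and Egr3 for pyruvate against lactate (0.0658).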
